A study of Rattus norvegicus with 52 samples.

Results

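The interleukin 1 system genes Il1rn, Il36b, Il36rn, Il1a, Il1b and Il1r1 were described across the sorted mammary epithelial populations of Cdkn1b-/- and Cdkn1b+/+ rats. They are 6 of the 17356 genes in the deposited count tables, found there by symbol in each of the 48 RNA libraries. They were chosen because Il36b, Il36rn and Il1rn, which neighbour each other on chromosome 3, were higher in Cdkn1b-/- luminal progenitors at 9 weeks, together with the IL-1 agonists and receptor. The difference between genotypes in that population is therefore given as a description, without a test, while the other populations, ages, hormone treatment and strain were not used for the choice.

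Interleukin 1 alpha (Il1a) and beta (Il1b) are agonists that bind the receptor encoded by Il1r1, which then recruits an accessory protein and signals through MyD88 and IRAK kinases to NF-kB. Il1rn encodes the IL-1 receptor antagonist, which occupies the same receptor without recruiting the accessory protein. The IL-36 cytokines repeat this layout at their own receptor, encoded by Il1rl2, with Il36b as an agonist and Il36rn as the antagonist. Members of the family are made by barrier epithelia such as skin as well as by myeloid cells.

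The RefSeq table of the rat assembly GRCr8 placed Il36g, Il36a, Il36b, Il36rn, Il1f10, Il1rn, Psd4 and Pax8 in that order on chromosome 3. In that assembly the span of Il36b enclosed Il36rn and Il1f10 and overlapped Il1rn in part. The reads were counted on another assembly, rn6, whose gene models were not examined here. No source used here states that the counting used strand. If the spans overlap in rn6 too, reads of overlapping parts cannot be told apart. Il1a and Il1b neighbour each other elsewhere on chromosome 3, between Slc20a1 and Sirpa, and Il1r1 lies on chromosome 9 between Il1r2 and Il1rl2. RefSeq promoters (250 bases before to 50 after the annotated start, GRCr8) were matched for 5 of the 6 genes, and the pair of neighbours that moved in the same direction in luminal progenitors are shown 5' to 3', with the match to a searched motif in capitals. In the Il1rn promoter the capitals mark GGGTTTTTCC, a match to the NF-kB pattern (GGG and CC around any 5 bases) that began at position -129 from the start, and in the Il36b promoter they mark TTCATAGAA, a match to the STAT pattern TTCNNNGAA at position -60.
Il1rn, chr3:27520072-27520371, + strand: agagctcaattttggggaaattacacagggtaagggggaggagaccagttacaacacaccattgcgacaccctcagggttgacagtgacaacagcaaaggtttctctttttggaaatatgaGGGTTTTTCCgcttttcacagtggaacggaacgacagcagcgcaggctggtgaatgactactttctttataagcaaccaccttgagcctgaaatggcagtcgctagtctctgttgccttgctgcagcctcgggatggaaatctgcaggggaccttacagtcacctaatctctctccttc
Il36b, chr3:27428629-27428928, - strand: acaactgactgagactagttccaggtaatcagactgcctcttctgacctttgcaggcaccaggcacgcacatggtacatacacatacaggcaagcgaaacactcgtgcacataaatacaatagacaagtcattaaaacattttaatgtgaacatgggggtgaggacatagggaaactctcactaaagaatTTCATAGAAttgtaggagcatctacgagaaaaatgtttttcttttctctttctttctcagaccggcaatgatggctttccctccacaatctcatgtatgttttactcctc

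The motifs were chosen after the expression values were known, were searched on both strands, and a match is a description of the letters only. The NF-kB pattern was present in 47.3% of 33469 promoters of this length, the STAT pattern in 8.87%, the AP-1 pattern TGANTCA in 7.33% and the steroid receptor pattern ACANNNTGT in 6.86%. The Il1a promoter held TGACTCA at position -12 and that of Il1r1 held the NF-kB pattern on the other strand at position -135. None of the 4 patterns was found in the Il1b window, and the steroid receptor pattern was in none of the 5 windows.

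The 16 libraries of 9-week-old ACI females comprised basal/myoepithelial cells (Cd24+ Cd29HIGH, n = 2 per genotype), luminal cells (Cd24+ Cd29LOW, n = 2) and luminal progenitors (LP), sorted within the luminal gate as PNA+ (binding peanut agglutinin, n = 2) or Cd49b+ (n = 2). Basal and luminal cells were also profiled at 4 weeks (Cdkn1b+/+ n = 3 and 3, Cdkn1b-/- n = 2 and 3) and at 6 weeks (Cdkn1b+/+ n = 3 and 2, Cdkn1b-/- n = 2 and 2), and in ACI and Brown Norway (BN) females without or with 17β-estradiol (E2) implants (ACI n = 2 and BN n = 1 in each arm). Cdkn1b encodes the cell cycle inhibitor p27; its first-coding-exon deletions DEL-32 and DEL-65, made in Sprague-Dawley embryos and backcrossed to ACI, contributed equally to the knockout and to the littermate wild-type groups. The deletion was in the germline and so not limited to the mammary gland, and all knockout rats had cataracts. The labels do not say how many rats the 9-week numbers stand for, or whether equal numbers in PNA+ and Cd49b+ cells mean shared rats, so p-values measure the spread between these libraries.

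Total counts were 21545344 to 33859550 per library at 9 weeks, 14674040 to 23045345 at 4 weeks, 7985619 to 16390460 at 6 weeks and 13659389 to 25280421 in the E2 experiment. Levels are given as normalised CPM (counts scaled to a common library size by TMM) and were normalised separately for the 9-week set, the 4- and 6-week set and the E2 set, so they are ordered within a set only. Cdkn1b itself was 1.80 to 4.61 normalised CPM in the 8 Cdkn1b-/- libraries at 9 weeks and 6.14 to 15.7 in the 8 Cdkn1b+/+ libraries. The genotypes overlapped at 4 weeks (5.19 to 18.8 and 14.3 to 41.4). At 6 weeks the library labelled Cdkn1b+/+ basal replicate 3 had 3.48 and the library labelled Cdkn1b-/- luminal replicate 2 had 36.7, both against their labels, and these libraries also had the lowest totals of that age, 7985619 and 9286371 counts.

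The sort labels were compared with marker genes. Of 5 LP markers, 4 were in the files, and Elf5, a transcription factor of alveolar progenitors, was lower in the 4 Cdkn1b+/+ LP libraries (39.0 to 55.6 normalised CPM) than in the luminal pair (82.0 to 105.2), while Kit overlapped (58.7 to 261.8 against 91.0 to 290.7). The summed level of 5 hormone-sensing markers was higher in the Cdkn1b+/+ LP libraries (323.6 to 423.6) than in luminal cells (186.1 to 227.4). In Cdkn1b-/- LP this sum was 163.4 to 243.2, below Cdkn1b+/+ LP without overlap. The name LP is used here for the sort gate.

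In Cdkn1b-/- LP at 9 weeks, Il1rn, Il36b, Il36rn and Il1a were higher than in Cdkn1b+/+ LP in every library, whereas Il1b and Il1r1 overlapped between genotypes. Il1rn, the IL-1 receptor antagonist, had 390.2 and 60.7 normalised CPM in the PNA+ and 271.7 and 32.6 in the Cd49b+ knockout libraries (numbers 1 and 2), and 2.63, 10.0, 2.11 and 11.8 in the wild-type ones. The knockout mean was 188.8 ± 171.5 (SD, n = 4) and the wild-type mean 6.64 ± 4.99 (SD, n = 4), a ratio of 28.4 and a fitted log2 difference of 4.82 with a standard error of 1.01. Knockout libraries numbered 1 were the high ones and wild-type libraries numbered 1 the low ones, so the smallest gap between genotypes, 32.6 against 11.8, was between libraries numbered 2.

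**Figure D1:**
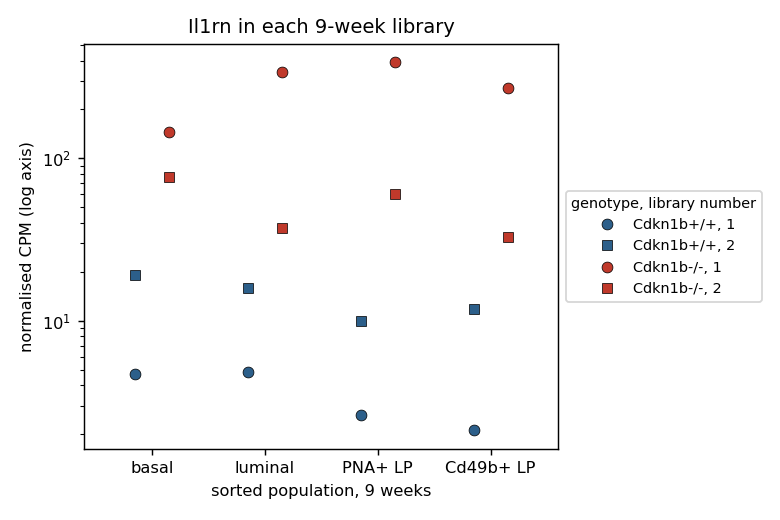
Il1rn level in each 9-week library, with the sorted population on the horizontal axis and normalised CPM on a logarithmic vertical axis; colours give the genotype and symbols the library number. The Cdkn1b-/- libraries lie between 32.6 and 390.2 and the Cdkn1b+/+ libraries between 2.11 and 19.0.

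The IL-36 genes beside it had few reads. Il36b, the IL-36 beta agonist, was counted 16, 11, 13 and 13 times in the knockout LP libraries, which is 0.384 to 0.710 normalised CPM, and 1, 2, 2 and 4 times in the wild-type ones, 0.0333 to 0.116 normalised CPM. The fitted log2 difference was 2.68 with a standard error of 0.598. The wild-type counts of 1 to 4 lie near the 3 counts that a count of 0 allows, so the size of this difference is poorly determined.

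Il36rn, the antagonist of the IL-36 receptor, had 7.59, 4.47, 7.17 and 3.86 normalised CPM in knockout LP and 1.53, 0.501, 1.89 and 0.870 in wild-type LP. The means were 5.77 ± 1.88 and 1.20 ± 0.628 (SD, n = 4 each), a ratio of 4.82 and a log2 difference of 2.27 with a standard error of 0.486. Il1a, the alpha agonist on the other part of chromosome 3, had 10.7, 2.97, 11.8 and 2.40 in knockout and 0.866, 1.03, 0.778 and 1.22 in wild-type LP, a ratio of means of 7.16. As for Il1rn, the knockout libraries numbered 1 carried the highest Il1a values.

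Il1b, the beta agonist, had 0.843, 0.454, 1.53 and 3.23 normalised CPM in knockout LP and 0.899, 3.89, 1.30 and 4.46 in wild-type LP. Il1r1, the receptor on which the agonists and Il1rn compete, had 11.6, 23.6, 28.6 and 58.5 in knockout LP and 23.9, 49.8, 31.8 and 57.8 in wild-type LP. For both genes the genotypes overlapped. Il1r1 was higher in the library numbered 2 than in that numbered 1 in each of the 4 pairs. In this contrast 436 of 12809 genes, 3.4%, passed an adjusted p of 0.05, 4 of the 6 members among the 271 higher ones (2.12%), and 7.43% of genes were higher in every knockout LP library. The members were picked on this contrast, so nothing is read from these shares.

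**Figure D2:**
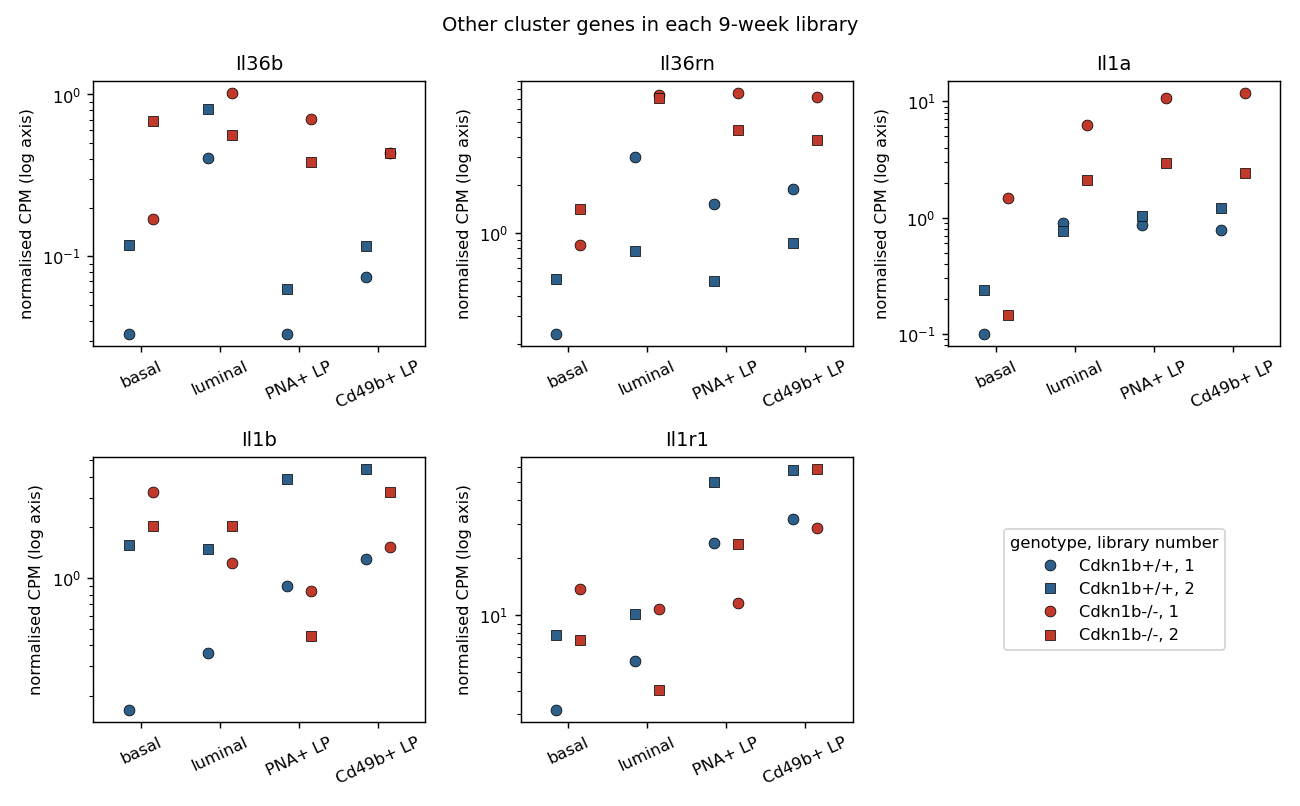
Normalised CPM (logarithmic vertical axes) of Il36b, Il36rn, Il1a, Il1b and Il1r1 in each 9-week library, by sorted population, with colours for the genotype and symbols for the library number. In LP, Il36b, Il36rn and Il1a separate the genotypes, with Il36rn at 3.86 to 7.59 against 0.501 to 1.89, and Il1b and Il1r1 overlap.

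The remaining genes of the locus did not all follow. Il36g, another IL-36 agonist, had 0.140 to 0.932 normalised CPM (4 to 21 counts) in knockout LP and 0 to 0.111 (0 to 3 counts) in wild-type LP. Il36a had no count in any of the 8 LP libraries, and Il1f10 had at most 2. Psd4, next to Il1rn on the far side, had 3.86 to 12.2 in knockout and 5.04 to 6.69 in wild-type LP, overlapping between genotypes.

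Kit, which encodes the stem cell factor receptor and is an LP marker, moved with the library number in the same way. In LP it was 268.4 to 318.0 normalised CPM in knockout libraries numbered 1, 47.4 to 71.2 in knockout libraries numbered 2, 58.7 to 63.0 in wild-type libraries numbered 1 and 254.0 to 261.8 in wild-type libraries numbered 2. The decoy receptor gene Il1r2, beside Il1r1, was higher in the library with the lower Kit level in each population except wild-type basal cells, where both were higher in library 2. Over the 4 populations Il1r2 was 0.868 to 3.38 and 5.07 to 23.6 in knockout libraries numbered 1 and 2 and 1.84 to 21.9 and 0.927 to 3.53 in wild-type ones. Whether what sets libraries of 1 number apart has a part in the level of Il1rn was not tested, and in bulk samples a change in the share of a cell type and a change in RNA per cell cannot be told apart.

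**Figure D3:**
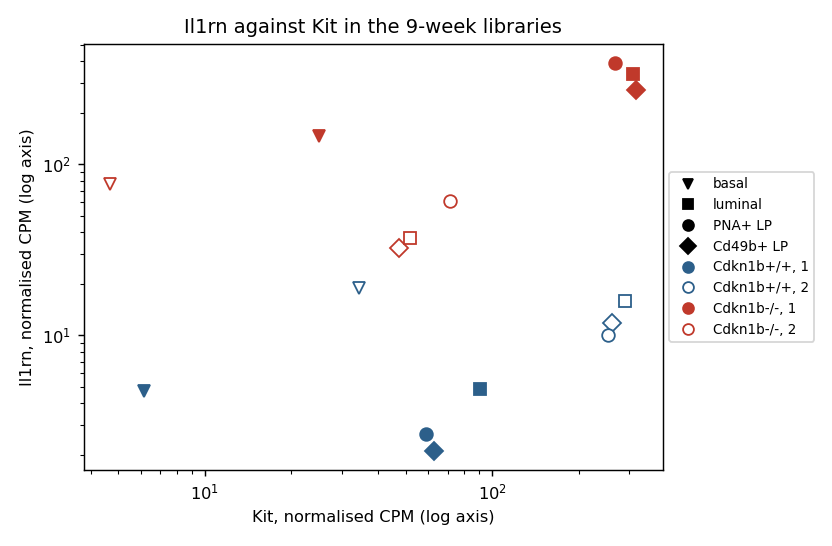
Il1rn against Kit in the 16 libraries of 9 weeks, both as normalised CPM on logarithmic axes, with symbols for the sorted population, colours for the genotype and filled symbols for libraries numbered 1. Knockout and wild-type LP libraries overlap in Kit (47.4 to 318.0 and 58.7 to 261.8) and not in Il1rn (32.6 to 390.2 and 2.11 to 11.8). Summed hormone-sensing markers, not plotted, kept the genotypes apart in LP (163.4 to 243.2 in knockout and 323.6 to 423.6 in wild-type libraries). Their part in the Il1rn level was not tested.

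Markers of myeloid cells, a known source of IL-1 family cytokines, were examined beside these values. The summed level of 14 myeloid markers, all of them detected, was 545.1 to 1740 normalised CPM in knockout LP and 395.7 to 753.1 in wild-type LP, and Cd14, which luminal cells also express, made up most of it (442.9 to 1643 and 233.8 to 654.7). The leukocyte markers Ptprc and Csf1r were at most 1.27 and 2.23 normalised CPM in the 8 LP libraries. The remaining markers of the list, among them Cd68, Lyz2 and Cd74, hold the rest of the sum and are not given singly. Of 10 markers of stratified squamous epithelium such as skin, 7 were in the files, with Ivl at 0 in LP. Their sum was 30.2 to 53.3 in knockout and 17.3 to 29.7 in wild-type LP, without overlap. In basal cells it was 337.7 to 364.4 against 197.8 to 219.6, also without overlap. In luminal cells it was 32.4 to 51.3 against 31.8 to 36.6, which overlapped. The part of myeloid or skin-like cells in the result was not tested beyond these levels.

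The same comparison in basal and luminal cells at 9 weeks used libraries that had not served to choose the genes. They are not independent of the LP libraries, which were fitted together with them. Deviations of log2 levels from the group mean correlated across populations at 0.333 to 0.891 between same-numbered libraries of a genotype (12 pairs). Il1rn was 145.9 to 390.2 normalised CPM in the 4 knockout libraries numbered 1 and 32.6 to 76.4 in those numbered 2. In basal cells Il1rn was 145.9 and 76.4 normalised CPM in Cdkn1b-/- and 4.71 and 19.0 in Cdkn1b+/+ libraries, means of 111.1 ± 49.1 and 11.9 ± 10.1 (SD, n = 2 each). The log2 difference was 3.23 with a standard error of 1.32, and in the quasi-likelihood test of edgeR, adjusted over all genes by Benjamini-Hochberg, its adjusted p was 0.478. In luminal cells Il1rn was 337.8 and 37.3 against 4.85 and 15.9, means of 187.6 ± 212.5 and 10.4 ± 7.79 (SD, n = 2 each), with a log2 difference of 4.18, a standard error of 1.38 and an adjusted p of 0.414 in the same edgeR test. The genotypes did not overlap in either population, and the knockout luminal libraries lay far apart from each other. Leaving out 1 library at a time gave log2 differences of 2.55 to 4.56 in basal and 1.85 to 5.28 in luminal cells.

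Il36b and Il36rn did not behave alike in these populations. In basal cells Il36b had 4 and 14 counts in knockout and 1 and 3 in wild-type libraries (log2 difference 2.45, SE 0.872, edgeR adjusted p = 0.410), without overlap of the genotypes. In luminal cells it had 20 and 12 counts against 9 and 19, which overlapped, at 1.02 and 0.558 against 0.404 and 0.808 normalised CPM. Il36rn had 0.846 and 1.41 normalised CPM in knockout and 0.230 and 0.510 in wild-type basal cells (edgeR adjusted p = 0.548), and 7.40 and 7.07 against 3.01 and 0.766 in luminal cells (log2 difference 1.94, SE 0.679, edgeR adjusted p = 0.473).

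Il1a had 6.33 and 2.09 normalised CPM in knockout and 0.898 and 0.766 in wild-type luminal cells, without overlap (log2 difference 2.33, SE 0.932, edgeR adjusted p = 0.564). In basal cells its 35 and 3 counts in knockout against 3 and 6 in wild-type libraries overlapped, and the log2 difference of 2.29 (SE 1.07) became -0.16 without knockout basal library 1. Il1b had 3.26 and 2.05 against 0.165 and 1.57 in basal and 1.23 and 2.05 against 0.359 and 1.49 in luminal cells, and Il1r1 had 13.7 and 7.37 against 3.16 and 7.81, and 10.7 and 4.05 against 5.70 and 10.1. Of these, only basal Il1b kept the genotypes apart.

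No member was called in either population by edgeR, against 7 of 12809 genes in basal (0.0546%) and 17 in luminal cells (0.133%). At an unadjusted p under 0.05 in the edgeR test there were 3 of the 6 members in each population, where 1164 of 12809 genes in basal and 916 in luminal cells were. DESeq2 called none of the members, against 168 genes in basal and 164 in luminal cells. The knockout libraries were higher for every pair in 4 of 6 members in basal cells, where 20.1% of all genes were, and in 3 of 6 in luminal cells, where 15.7% were. The difference between the basal and the luminal genotype effect had an adjusted p of 1.00 in the edgeR fit for Il1rn (log2 -0.95) and for Il36b (log2 2.08), with no gene called, 562 at an unadjusted p under 0.05 and 5 called by DESeq2. The summed myeloid markers were 510.9 to 617.2 in knockout against 145.7 to 374.5 in wild-type basal cells, and their part in the basal values was not tested.

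**Figure D4:**
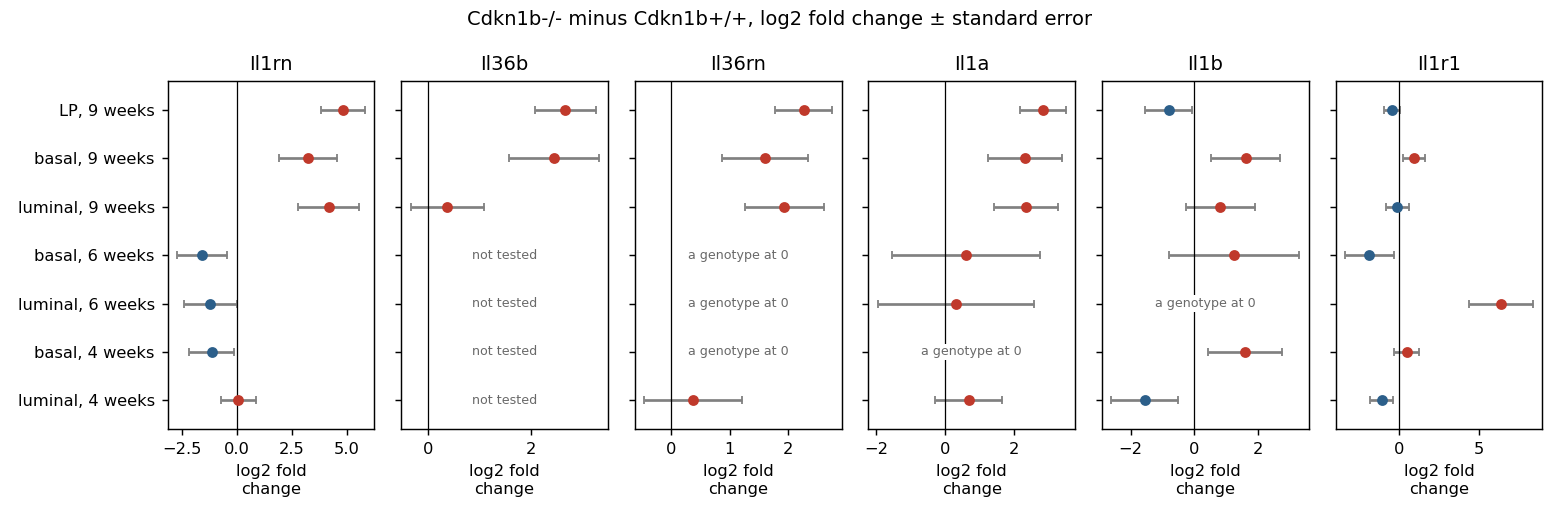
Fitted log2 fold change between Cdkn1b-/- and Cdkn1b+/+ libraries (horizontal axes, bars are standard errors) for the 6 members in each population and age; points are absent where a gene was not tested or a genotype had no count. Il1rn is positive in the 3 populations of 9 weeks (4.82, 3.23 and 4.18) and negative in both of 6 weeks (-1.60 and -1.22).

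Among Cdkn1b+/+ populations at 9 weeks, Il1r1, Il36b and Il36rn differed between populations in the edgeR test, and Il1rn was not called. Il1r1 was 23.9 to 57.8 normalised CPM in LP, 5.70 and 10.1 in luminal and 3.16 and 7.81 in basal cells, highest in LP with luminal and basal libraries overlapping. It was higher in LP than in basal cells by 2.90 on the log2 scale (SE 0.698, edgeR adjusted p = 0.00729) and than in luminal cells by 2.37 (SE 0.675, edgeR adjusted p = 0.0403). Without wild-type basal library 1 the difference to basal cells had an adjusted p of 0.0747. The endothelial markers moved with it: their sum over 6 markers, all detected, was 299.9 to 581.8 in wild-type LP, 78.3 to 88.2 in luminal and 57.1 to 109.6 in basal cells, with Pecam1 at 90.6 to 161.4, 20.8 to 24.0 and 17.4 to 33.2, and their part in the Il1r1 level was not tested.

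Il36b was lower in wild-type LP (0.0333 to 0.116 normalised CPM) than in luminal cells (0.404 and 0.808) by 2.99 on the log2 scale (SE 0.673, edgeR adjusted p = 0.0215). Low values in the same wild-type LP libraries were part of what Il36b was chosen for, so nothing is read from this p-value. Il36b was also lower in basal (0.0329 and 0.118) than in luminal cells by 2.97 (SE 0.860, edgeR adjusted p = 0.0253). Il36rn was lower in basal than in luminal cells by 2.35 on the log2 scale (SE 0.739, edgeR adjusted p = 0.0375). Both differences between LP and luminal cells lost their call when PNA+ and Cd49b+ counts of the same number were summed (adjusted p = 0.105 for Il36b and 0.0952 for Il1r1, with no gene called at all), and both basal to luminal calls were lost when these 4 libraries were fitted alone (adjusted p = 0.177 and 0.189). Leaving out luminal library 1 or 2, PNA+ library 2 or Cd49b+ library 2 also ended both LP to luminal calls (adjusted p from 0.0526 to 0.221), and leaving out Cd49b+ library 1 ended that of Il1r1 (0.0620). Between basal and luminal cells, the Il36b call ended without basal library 1 (0.169) or luminal library 2 (0.152), and the Il36rn call without basal library 1 (0.227), basal library 2 (0.0575) or luminal library 1 (0.371).

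The members called were thus 2 of 6 between LP and luminal cells (1 higher and 1 lower, where 11% of 12809 genes were called, 5% higher and 5.97% lower), 1 of 6 between LP and basal cells (higher, where 30.9% of genes were called, 13% higher) and 2 of 6 between basal and luminal cells (both lower, where 20.9% of genes were called, 8.58% lower). The lower member between LP and luminal cells, Il36b, had been chosen on the same wild-type LP libraries. For Il1a, the difference of LP from basal cells was 2.54 on the log2 scale (edgeR adjusted p = 0.0635) and that of basal from luminal cells -2.31 (edgeR adjusted p = 0.146). With genotype and library number as a block, chosen after seeing the data, both Il1a differences passed the edgeR test (log2 2.55 and -2.35, called higher in LP and lower in basal cells, adjusted p = 0.000454 and 0.00209). Over all alternatives run, the adjusted p ranged from 0.000454 to 0.284 and from 0.00209 to 0.448. Il1rn had overlapping ranges in wild-type basal (11.9 ± 10.1), luminal (10.4 ± 7.79) and LP libraries (6.64 ± 4.99, SD, n = 4). In knockout cells the order was LP (188.8 ± 171.5), luminal (187.6 ± 212.5) and basal (111.1 ± 49.1), and neighbouring populations overlapped there too. Between PNA+ and Cd49b+ LP no gene was called by edgeR, with 347 of 11488 at an unadjusted p under 0.05 and 42 called by DESeq2, and none of these was a member.

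The wider pathway was followed through 73 further ligands, receptors, adaptors, NF-kB subunits and inhibitors, processing enzymes and epithelial targets, of which 66 were in the files and 59 were tested at 9 weeks. None was called between genotypes in basal or luminal cells at 9 weeks. Their median log2 difference was 0.43 in basal cells, where the median of all genes was 0.0026, and 0.13 in luminal cells, where it was 0.032. In LP, given as a description, 1 of the 59 passed the threshold, Il1rl1, the IL-33 receptor, at 0.765 to 11.6 normalised CPM in knockout and 0.300 to 0.627 in wild-type libraries, with a median of 0.10 for the list against 0.032 for all genes. Over all populations Il1rl1 was 7.50 to 11.6 in knockout libraries numbered 1 and 0.765 to 2.78 in those numbered 2.

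Wild-type populations at 9 weeks were compared for the same genes. Between LP and luminal cells 5 of 59 were higher and 3 lower in LP, with Il33, an alarmin of the family, at 200.9 to 351.4 against 103.2 and 135.7 normalised CPM (log2 1.23, edgeR adjusted p = 0.0203) and the cytokine gene Il6 at 78.1 to 142.3 against 18.7 and 23.1 (log2 2.45, edgeR adjusted p = 0.0220). Sigirr, which encodes an inhibitory receptor of the family, was lower in LP than in luminal cells (log2 -0.63, edgeR adjusted p = 0.0475). Il36g and Il1rapl2 were lower too. These LP to luminal calls took the 4 wild-type LP libraries as separate, although deviations of same-numbered ones from their group means correlated at 0.891. Summing both LP gates within each library number left 0 of 12740 genes called, so none of these calls held. Endothelial markers were also higher in LP (299.9 to 581.8 against 78.3 to 88.2), and their part was not tested. Between LP and basal cells 17 were higher and 10 lower, where 30.9% of all genes were called. The former were led by Sigirr, Nfkbiz and Il33 (log2 2.12, 2.40 and 2.34) and the latter by Pycard, Nfkb2 and Gsdmd (log2 -2.42, -0.96 and -1.07). Pycard and Gsdmd act in inflammasome processing of IL-1 beta. This contrast too took the 4 wild-type LP libraries as separate. Endothelial markers were lower in basal cells (57.1 to 109.6) than in LP, and their part was not tested. Basal against luminal cells gave 6 higher, with Pycard at log2 2.90 and Ptgs2 at 3.66. It gave 14 lower, with Sigirr at -2.75, Il18bp at -1.60 and Nfkbiz at -1.58, where 20.9% of all genes were called.

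The genes whose pattern over the 16 libraries of 9 weeks was most like that of the neighbours were listed by Spearman correlation among 12809 genes, as a description, since the libraries share genotypes, sort gates and library numbers. For Il1rn they were Med8 and Mgat1 (rho = 0.959 each) and Slc15a4 (0.944), with Mgat1 at 38.2 to 60.8 normalised CPM in knockout and 19.4 to 42.0 in wild-type libraries. For Il36b they were Ctnnbip1 (0.929), Ppp2r1a (0.926) and Acadvl (0.921), and for Il36rn Tnfaip2 (0.956), Aqp3 (0.941) and Lactb (0.938). Among the members, rho was 0.741 for Il1rn with Il36b, 0.579 for Il1rn with Il36rn and 0.609 for Il36b with Il36rn, and the highest was 0.800, for Il36rn with Il1a, whose loci are apart.

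At 4 weeks, before puberty, the genotypes overlapped for each of the 5 members tested. Il1rn was 0.137, 1.19 and 0.253 normalised CPM in Cdkn1b+/+ and 0.358 and 0.124 in Cdkn1b-/- basal cells, and 1.55, 1.93 and 1.23 against 2.18, 1.19 and 1.70 in luminal cells. Il36rn was 3.37, 3.21 and 2.11 in wild-type and 3.80, 4.86 and 2.95 in knockout luminal cells. Il36b had no count in 18 of the 20 libraries of 4 and 6 weeks and was not tested; a count of 0 allows up to 3 counts, 0.130 to 0.376 CPM in these libraries. No gene was called between genotypes by edgeR in basal cells (310 of 12082 at an unadjusted p under 0.05, 1 member, and 1 gene called by DESeq2) or in luminal cells (435 genes, no member, and none by DESeq2).

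Il36rn and Il1a were lower in wild-type basal than luminal cells at this age, and Il1rn was not called (edgeR adjusted p = 0.246). In basal cells Il36rn was at 0 in 2 libraries and 0.303 in the other, lower than in luminal cells by 4.69 on the log2 scale (SE 1.06, edgeR adjusted p = 0.00665). Il1a had no count in the 3 basal libraries and 0.498, 1.55 and 2.19 normalised CPM in luminal ones, at least 9.69-fold higher when the basal libraries are set to 3 counts each (edgeR adjusted p = 0.00575). When 4 and 6 weeks were fitted together the adjusted p of Il1a was 0.0520. These were 2 of 5 members, where 2844 of 12082 genes (23.5%) were called, 9.73% as lower, and of 56 pathway genes tested 10 were higher in basal cells, among them Ccl2 (log2 3.52), the IL-36 receptor gene Il1rl2 (3.63) and Icam1 (1.76), and 14 lower, led by Sigirr (-4.20), Il33 (-3.53) and Irak2 (-3.50).

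At 6 weeks Il1rn was lower, not higher, in the libraries labelled Cdkn1b-/-, and the difference did not pass the test. In basal cells it was 10.5, 10.9 and 18.2 normalised CPM in Cdkn1b+/+ and 2.39 and 5.54 in Cdkn1b-/- libraries, a log2 difference of -1.60 (SE 1.14, edgeR adjusted p = 0.755). In luminal cells it was 14.1 and 7.20 against 3.07 and 5.9, a log2 difference of -1.22 (SE 1.20, edgeR adjusted p = 0.628). Without the library of that population whose Cdkn1b level went against its label, the differences were -1.36 in basal and -1.78 in luminal cells. Sample titles carry 5.9 for the wild-type rats and knockout replicate 2, and a lower number for knockout replicate 1. Knockout replicate 1 had the lower knockout Il1rn in both populations (2.39 and 3.07). If these numbers are ages in weeks, age and genotype cannot be told apart in that replicate. The genotypes did not overlap in either population, and Il1rn was the only member lower without overlap, where 17.6% of all genes in basal and 26.6% in luminal cells were. The sum of 6 neutrophil markers was 3.45, 75.3 and 1901 normalised CPM in wild-type and 1.16 and 0.542 in knockout basal libraries, and 17.8 and 36.6 against 1.60 and 24.0 in luminal ones, with Cxcr2 at 0 in the wild-type libraries of both populations. In basal cells the fibroblast and endothelial sums ran the other way, at 72.2 to 554.5 against 2009 to 3029 and 2.92 to 5.02 against 12.04 to 26.4. The part of such cells in the Il1rn values was not tested.

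**Figure D5:**
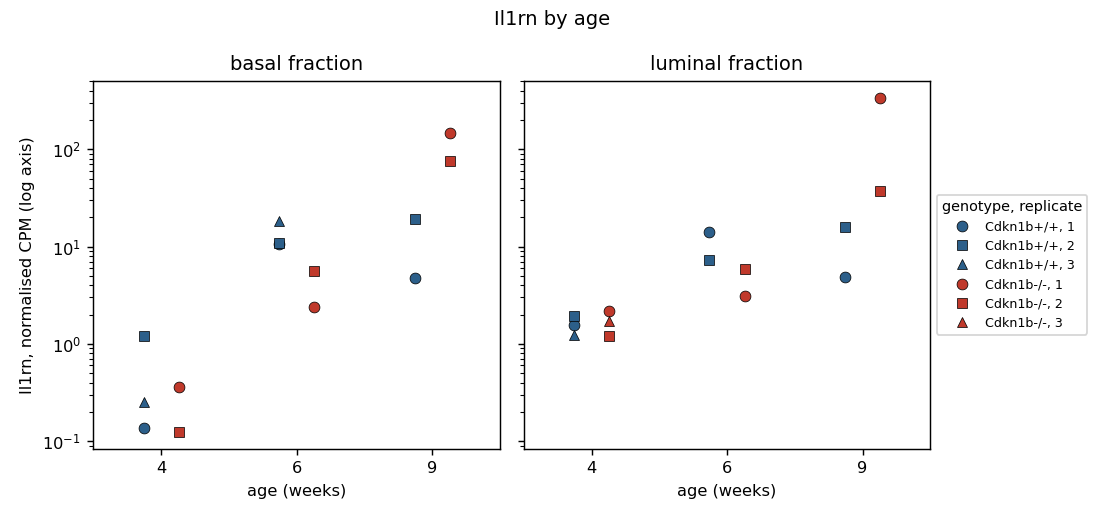
Il1rn level by age in weeks in basal (left) and luminal (right) libraries, as normalised CPM on a logarithmic vertical axis, with colours for the genotype and symbols for the replicate. The 9-week set was normalised apart from the younger ages. Its luminal cells are given in the paper as Cd49b- and PNA-, a split not given for the younger ages. Knockout libraries lie below wild-type ones at 6 weeks (2.39 to 5.9 against 7.20 to 18.2) and above them at 9 weeks (37.3 to 337.8 against 4.71 to 19.0).

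In luminal cells of 6 weeks Il36rn, Il1b and Il1r1 were higher without overlap in the knockout libraries, where 23.1% of all genes were. Il36rn had no count in wild-type and 41 and 57 counts in knockout libraries, at least 20.0-fold higher when the wild-type libraries are set to 3 counts each. Il1b had no count in wild-type and 86 and 1165 counts in knockout libraries (6.00 and 153 normalised CPM), and Il1r1 had 0 and 3 against 119 and 97 counts. The second knockout value of each gene is from replicate 2, the library whose Cdkn1b level went against its label. Replicate 1 alone also lay above both wild-type libraries for each of these genes, but is a single library. The edgeR adjusted p was 0.220 for Il36rn, 0.193 for Il1b and 0.190 for Il1r1. Il1a had 45.9 and 3.30 in wild-type and 2.51 and 56.3 in knockout libraries and overlapped fully.

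No gene was called between genotypes at 6 weeks by edgeR, with 1961 of 11921 genes and 3 members at an unadjusted p under 0.05 in luminal cells and 1072 genes and no member in basal cells. DESeq2 called 1332 genes in luminal cells, Il1b and Il1r1 among them, and 330 in basal cells without a member. Markers of other cells moved with the luminal values: 6 endothelial markers summed to 138.5 to 1529 normalised CPM in the knockout and 0.287 to 8.12 in the wild-type libraries, 7 fibroblast markers to 101.7 to 3836 and 15.7 to 33.7, and 14 myeloid markers to 1013 to 2854 and 159.0 to 334.3. In the wild-type libraries Emcn, Col1a2 and Fap were at 0, and Col1a2 was at 0 in the knockout ones too. Their part in these values was not tested.

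Between 4 and 6 weeks Il1rn rose in wild-type basal cells, from 0.137 to 1.19 normalised CPM to 10.5 to 18.2, a ratio of means of 25.1 and a log2 difference of 4.63 (SE 0.948, edgeR adjusted p = 0.00625). It also passed without the library labelled Cdkn1b+/+ basal replicate 3 of 6 weeks (4.21, edgeR adjusted p = 0.0108). In luminal cells the difference was 2.76 (SE 0.916, edgeR adjusted p = 0.0996), at 1.23 to 1.93 and 7.20 to 14.1. Il1r1 fell in luminal cells from 1.83 to 8.61 normalised CPM to 0 and 0.230 (log2 -5.34, SE 1.38, edgeR adjusted p = 0.0421), a call that was lost without each of the 3 luminal libraries of 4 weeks and without luminal library 1 of 6 weeks (adjusted p from 0.0613 to 0.367). These were 1 of 5 members in each cell type, where 10.5% of 12572 genes were called in basal cells (4.82% higher) and 3.1% in luminal cells (1.92% lower). Age and sequencing depth cannot be told apart here, the 6-week libraries being the shallower ones.

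Of 58 pathway genes, 8 rose and 3 fell in basal cells between these ages. Mmp3, a matrix protease induced by IL-1, rose by 3.19 on the log2 scale, and Elane and S100a8, which are neutrophil genes, rose as well, with a neutrophil marker sum of 3.45, 75.3 and 1901 in the 3 basal libraries of 6 weeks. Myd88, the shared adaptor, fell by 1.21 in basal and by 1.87 in luminal cells, and Sigirr and Bcl3 fell in basal cells. In luminal cells Il1rl1 rose by 4.23 (edgeR adjusted p = 0.0341). At 6 weeks itself, none of 5 members was called between basal and luminal wild-type cells by edgeR (2 at an unadjusted p under 0.05 and 2 by DESeq2, where 2.43% of 11921 genes were called).

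In the E2 experiment the members were scattered within arms. Il1rn in luminal libraries was 2.13 and 0.170 normalised CPM in untreated ACI rats, 0.0538 and 5.38 in E2-treated ACI rats, 0.350 in the untreated BN library and 58.8 in the E2-treated BN library. In basal libraries it was 0 and 5.19, 0 and 3.90, 4.74 and 0 in the same order. Libraries of 1 arm thus lay as far apart as libraries of different arms, apart from the treated BN luminal library, which was the highest.

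Il1a in that BN library was the highest as well, at 55.9 normalised CPM, beside 19.9 in the treated BN basal library, 4.2 in the untreated BN luminal library, 10.6 and 4.25 in untreated ACI luminal libraries and 0 in both treated ones. Il36rn was detected in 5 of 6 luminal libraries (1.30 to 14.4) and in none of 6 basal libraries, and Il36b had 3 counts in 1 of 12 libraries. Il1r1 ranged from 4.29 to 87.2 in luminal and from 5.20 to 106 in basal libraries, and Il1b from 0 to 2.12 and from 0 to 14.9. A count of 0 allows 0.119 to 0.220 CPM in these libraries.

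No gene was called by edgeR for E2 against control or for ACI against BN in either cell type, and no member had an unadjusted p under 0.05. For E2 there were 468 of 11499 luminal and 181 of 11288 basal genes at an unadjusted p under 0.05 and 89 and 74 called by DESeq2, no member among them. For strain there were 527 and 89, and DESeq2 called 312 and 8, with Il1a among the luminal ones. Between basal and luminal cells, edgeR called 220 of 11808 genes (1.86%) and none of 5 members; Il36rn had an adjusted p of 0.111. BN arms held 1 library each, so that strain differences rest on 2 BN libraries in each cell type.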

How the data were processed

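RNA of sorted rat mammary epithelial populations was sequenced from low-input polyA libraries (SMARTer v4, a kit that does not mark strand) as single-end reads. Per the paper's methods and the submitters' processing notes, the authors aligned reads to rn6 with STAR 2.5.1b and deposited raw counts per gene from HTSeq. Rows that name no gene (47.1% to 77.0% of the counted reads per library) were left out of library sizes. Progesterone receptor ChIP data were not analysed here.

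The members, gene lists and comparisons were chosen with earlier results of these data known. Counts were scaled to CPM by TMM within the 9-week, the 4- and 6-week and the E2 sets. Genes were kept by edgeR's expression filter (count minimum 10) and tested with the quasi-likelihood test of edgeR 4.0.16 (limma 3.58.1, R 4.3.3) with Benjamini-Hochberg adjustment over every gene tested and a threshold of 0.05; DESeq2 1.42.0 was an alternative. Fits were tested on simulated counts. Named members are the 6 chosen genes; pathway genes named are those with the lowest adjusted p in each direction. Counting limits cover counting error only. None of 28 pairs of replicate libraries agreed within sampling noise. Library numbers were not used as a block. Deviations of log2 levels from the group mean were correlated between same-numbered libraries. The correlation was 0.333 to 0.891 within a genotype (12 pairs) and -0.369 to -0.088 between genotypes (4 pairs). Alternatives covered normalisation, filters, models, blocks and leaving out each library.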

Additional observations from a re-analysis of the deposited data

Results flagged for a closer look

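Among the 4 Cdkn1b-/- luminal progenitor libraries of 9 weeks, Il36b in PNA+ library 1 (0.710 normalised CPM, 16 counts) lay apart from the others (11 to 13 counts), with a gap to the nearest of 0.847 of the group's range. Chance marks about 1 in 20 such groups.

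The Il1rn difference between genotypes pointed in opposite directions at 6 and 9 weeks, every knockout library lying below the wild-type ones at 6 weeks and above them at 9 weeks. In basal cells the log2 difference was -1.60 at 6 weeks and 3.23 at 9 weeks, and in luminal cells it was -1.22 and 4.18. The difference between ages was not tested, since the sets were normalised and fitted separately.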

How the results depend on the processing

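Over the member differences reported, 607 values were recomputed under alternatives. Of these, 541 counted as unchanged, 24 lost the call, 20 gained one, 16 changed sign and 6 moved. Outside the LP genotype contrast, unchanged means the same direction and side of the threshold. In that contrast, which was not tested, it means a shift smaller than the gene's SD within genotypes on the log2 scale, and moved means a larger shift. The crossed pairing and the genotype-and-number block were chosen after seeing the data. The cause of each change was not tested.

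With the replicate block (library number) the Il1r1 difference between genotypes in luminal cells of 9 weeks was 0.068 in place of -0.10, and 2 members were called between wild-type LP and basal cells in place of 1. Numbers did not pair the genotypes. With crossed pairing 1 member was called in basal and 1 in luminal cells of 9 weeks, and 77, 132 and 1284 genes were called in basal, luminal and LP cells. Blocking on the animal called 3831 genes between basal and luminal cells at 4 weeks, 143 at 6 weeks and 292 in the E2 experiment, and changed no member call.

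Members called between wild-type LP and basal cells were 3 by DESeq2, 3 by voom, 2 with compared libraries alone, 2 with crossed pairing and 3 with the genotype-and-number block. DESeq2 called 4745 of 12809 genes in this comparison, and the alternatives ranged from 2219 to 6406 genes. The genotype-and-number block also called 3 members between basal and luminal cells of 9 weeks, in place of 2, where the alternatives ranged from 1279 to 4882 genes. Members called were 0 between wild-type LP and luminal cells with summed counts, where no gene was called, and 0 between basal and luminal cells of 9 weeks with compared libraries alone. DESeq2 called 2 members between genotypes in luminal cells of 6 weeks (1332 of 11921 genes called) and 2 between basal and luminal cells of 6 weeks (1522 of 11921). Between ages it called 2 members in basal cells (2640 of 12572 genes) and 4 in luminal cells (1646). It called 1 member between strains in luminal cells (312 of 11499 genes) and 1 between basal and luminal cells of the E2 experiment (1693 of 11808). Fitting 4 and 6 weeks together called 3 members between genotypes in luminal cells of 6 weeks, and 1 each between basal and luminal cells at 4 and at 6 weeks. Ranges of all genes called under the alternatives are given below.

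Leaving out 1 library at a time, log2 differences between genotypes ranged from -0.16 to 3.14 for basal Il1a, -0.12 to 0.96 for luminal Il36b and -0.96 to 0.45 for luminal Il1r1 at 9 weeks; from -1.98 to 0.27 for basal Il1rn, -0.44 to 2.43 for basal Il1b, -0.72 to 1.11 for basal Il1r1 and -0.12 to 0.26 for luminal Il1rn at 4 weeks; and from -5.27 to 5.85 for basal and -3.26 to 3.17 for luminal Il1a at 6 weeks. The difference of the Il1rn genotype effects ranged from -2.05 to 1.38. Members called ranged from 0 to 2 for wild-type LP against luminal and against basal cells, 0 to 1 for basal against luminal cells of 9 weeks, 0 to 2 between genotypes in luminal cells of 6 weeks and 0 to 1 between ages in luminal cells.

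Over the same alternatives, genes called between genotypes at 9 weeks ranged from 5 to 1284 in LP (436 as reported), 0 to 168 in basal (7) and 0 to 164 in luminal cells (17), and at 6 weeks from 0 to 330 in basal and 0 to 2269 in luminal cells (0 each). Between wild-type populations of 9 weeks they ranged from 0 to 4406 for LP against luminal (1406), 2219 to 6406 for LP against basal (3953) and 1279 to 4882 for basal against luminal cells (2672). Basal against luminal cells gave 1367 to 3831 at 4 weeks (2844), 21 to 1578 at 6 weeks (290) and 35 to 1693 in the E2 experiment (220), and 6 against 4 weeks gave 457 to 2640 in basal (1320) and 1 to 1646 in luminal cells (390).

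The alternative on progesterone receptor peaks was not run. Il36b, with at most 20 counts in a library, is limited by depth, and the 6-week libraries were the shallowest.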
